A study of Mus musculus with 8 samples.

Results

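For genes of mouse skin tumour cells, the change after loss of Twist1 and p53 was compared with that after loss of Twist1 alone. For every gene the quantity was a difference of differences on the log2 scale: the change after joint deletion of Twist1 and p53, minus the change after deletion of Twist1 alone, each against its own controls. All 8 arrays of the series entered. Of 44979 probe sets shared by the 2 array types, 27939 had the same single gene on both and stood for 16617 genes. After 2640 genes with low values were left out, 13977 genes had a difference of differences. Within these, 105 genes had changes of opposite sign of at least 0.5 in each comparison, which is 0.751% of the genes, and these are described most closely.

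Skin tumours had been induced with DMBA, which mutates DNA, followed by TPA, which promotes growth, and mice of all groups received 5 doses of 2 mg tamoxifen. CreER, a recombinase that tamoxifen activates, was driven by the keratin 14 promoter of basal epithelial cells. The cKO group was K14CreER:Twist1fl/fl and its CTRL cKO group Twist1fl/fl without Cre, while the Rescue group was K14CreER:Twist1fl/fl:p53fl/fl and its CTRL Rescue group Twist1fl/fl:p53fl/fl without Cre. Each group had 2 arrays of sorted Epcam+/Lin-/DAPI- cells. The mice were littermates of mixed strain background carrying several transgenes, and no label gives their age. The labels do not say whether the arrays of a group came from separate mice, so p-values measure only the spread between these arrays.

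Twist1 is a transcription factor of mesenchymal programmes that also holds back the p53 pathway. p53 responds to stress by switching on genes that stop the cell cycle, start cell death or, as with Mdm2, restrain p53 itself. Interferon-induced genes form a separate defence programme, switched on when cells sense foreign or misplaced nucleic acid or receive interferon, through STAT and IRF factors that bind a short promoter element. The comparison asks which Twist1-dependent changes were absent, turned round or joined by others once p53 was lost too.

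The arrays of each comparison were normalized in a table of their own, so a level is comparable within a table and not between them. Because each comparison used its own array type and its own control genotype, the effect of p53, the array type and the experiment cannot be told apart in any difference of differences. No group lost p53 alone, and CTRL Rescue had no Cre. A direct effect of p53 loss therefore cannot be told apart from an altered response to loss of Twist1. The targeted gene Twist1 read 5.20 and 7.18 in CTRL cKO against 3.81 and 3.90 in cKO, and 6.15 and 6.04 in CTRL Rescue against 4.82 and 5.01 in Rescue. It was lower in both deletions without passing the test here (-2.33, limma adjusted p = 0.187, and -1.19, adjusted p = 0.320). Xist and the Y-linked gene Eif2s3y separated deletion from control arrays in the same direction in both tables, at -5.32 and -7.04 for Xist, so sex and the presence of Cre cannot be told apart from deletion. Keratin genes and Epcam placed the cells as epithelial: Krt14, Krt5 and Epcam ranked at or above percentile 96.4 in both tables. The 2 arrays of a group differed most in cKO (SD over genes 0.50) and Rescue (0.46), and less in CTRL cKO (0.33) and CTRL Rescue (0.19). Gapdh probe sets at the 3' end exceeded those at the 5' end by 0.03 to 0.04 in CTRL cKO and by 0.22 to 0.30 in cKO. In the Twist1/p53 table this excess lay between -0.04 and 0.06 in all arrays, and its part in the results was not tested.

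Most genes differed little between the 2 deletions. The difference of differences had a median of 0.01, and 11396 genes (81.5%) lay between -0.5 and 0.5. Its extremes were -5.07 for Lor, the cornified envelope protein loricrin, and 5.69 for Ifi27l2a, a gene induced by interferon. At least 2 above 0 lay 104 genes, and at least 2 below 0 lay 39. The 2 changes correlated across genes with Pearson r of 0.32 and Spearman rho of 0.28 (13977 genes, which are not independent replicates). Opposite signs of any size were common, at 5646 genes or 40.4%, whereas 507 genes (3.63%) moved at least 0.5 in the same direction in both. A further 380 genes (2.72%) differed by at least 1 after joint deletion with less than 0.5 after Twist1 deletion, 251 higher (1.8%) and 129 lower (0.923%). The reverse, at least 1 after Twist1 deletion and less than 0.5 after joint deletion, held for 99 genes (0.708%).

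**Figure D1:**
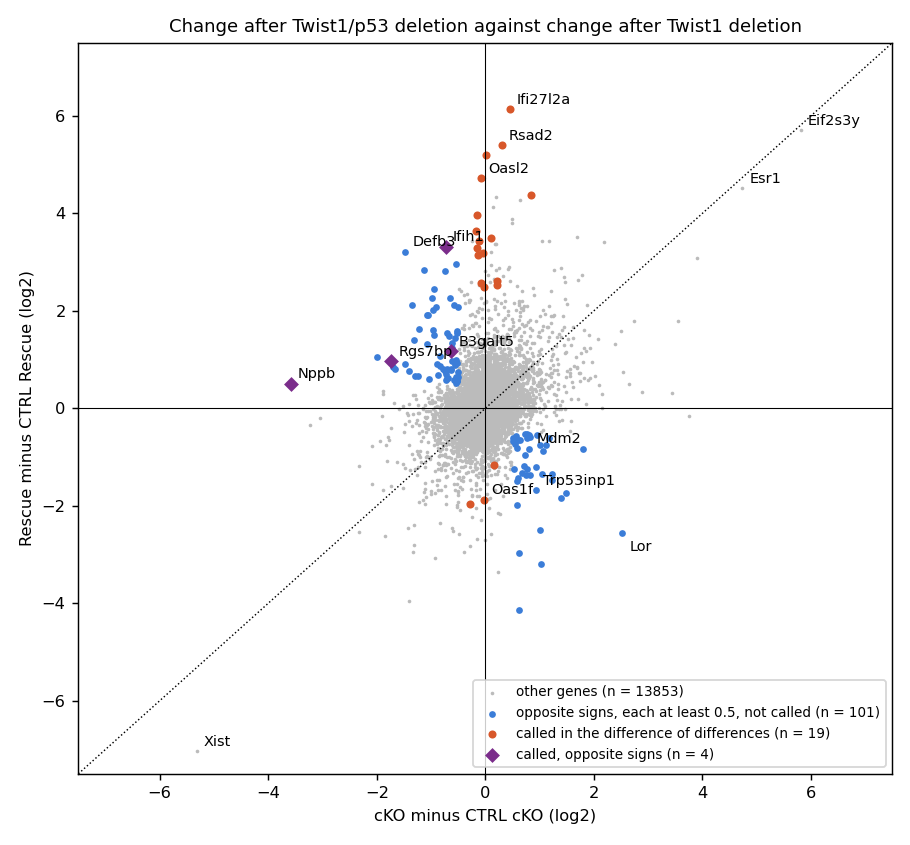
Each point is a gene, placed by its log2 change after Twist1 deletion (horizontal) and after Twist1/p53 deletion (vertical), with the dotted line where both are equal. Genes called in the difference of differences lie mostly along the upper vertical axis, close to no change after Twist1 deletion, and 4 of the 23 (diamonds) had opposite signs of at least 0.5 in each.

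The difference of differences passed the test for 23 genes (limma on all 8 arrays, Benjamini-Hochberg adjusted p under 0.05), or 0.165% of the genes, with 20 higher (0.143%) and 3 lower (0.0215%). An unadjusted p under 0.05 was reached by 1438 genes (10.3%), 823 higher (5.89%) and 615 lower (4.4%). Of the 23 genes, 18 belonged to changes seen after joint deletion alone by the sizes above, 15 of them higher and 3 lower. A further 4 had opposite signs, and Ifit1 differed in the same direction in both tables. Members of 2 lists of interferon genes made up 11 of the 23. The count depended strongly on single arrays: it was 11 without CTRL cKO 1, 12 without CTRL cKO 2, 37 without cKO 1 and 144 without cKO 2. It was 10 without CTRL Rescue 1 and also 10 without CTRL Rescue 2, and 39 without Rescue 2. Across these 8 fits 9 genes passed every time: Rtp4, Rsad2, Oasl2, Usp18, Xaf1, Zbp1, Ifit1, Baiap2l1 and Acod1.

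The list with the most called genes was that of interferon-induced antiviral effectors. Of 22 measured, 9 passed as higher in the difference (0.143% of all genes did), all 22 differences were above 0, and the median was 2.61 against 0.01 over all genes. Their median change was -0.06 after Twist1 deletion and 2.37 after joint deletion. In the joint deletion 16 of the 22 rose on their own, where 1.19% of all genes did. Without CTRL Rescue 1 or CTRL Rescue 2, 7 passed in the difference, and 13 did without cKO 2. Of 20 genes of interferon signalling and nucleic acid sensing, 2 passed, Ifih1 and Dhx58, with a median difference of 0.75.

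The promoters below are shown because these 4 genes passed as higher and carry the letters of the interferon-stimulated response element. They come from RefSeq (GRCm38.p6), from 250 bases before to 50 after the start of the gene, 5' to 3' on its own strand. Capitals mark each match to GAAANNGAAA, which reads TTTCNNTTTC where it lies on the other strand. Rsad2 lies on the minus strand at chr12:26456403-26456702 and Ifih1 on the minus strand at chr2:62646206-62646505. The plus strand holds Ifit1 at chr19:34640639-34640938 and Ifit3 at chr19:34583279-34583578.
Rsad2: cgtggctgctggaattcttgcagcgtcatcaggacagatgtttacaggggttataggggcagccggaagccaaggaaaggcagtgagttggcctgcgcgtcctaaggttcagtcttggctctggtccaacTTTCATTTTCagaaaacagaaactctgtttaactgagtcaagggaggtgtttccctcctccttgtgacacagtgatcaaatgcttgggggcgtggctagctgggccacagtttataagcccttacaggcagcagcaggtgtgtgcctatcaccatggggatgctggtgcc
Ifih1: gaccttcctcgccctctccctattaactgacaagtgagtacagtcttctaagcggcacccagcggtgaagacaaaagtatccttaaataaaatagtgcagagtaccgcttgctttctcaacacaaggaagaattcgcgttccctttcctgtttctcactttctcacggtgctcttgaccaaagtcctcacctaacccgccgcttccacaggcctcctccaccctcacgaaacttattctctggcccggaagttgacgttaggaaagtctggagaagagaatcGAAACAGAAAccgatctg
Ifit1: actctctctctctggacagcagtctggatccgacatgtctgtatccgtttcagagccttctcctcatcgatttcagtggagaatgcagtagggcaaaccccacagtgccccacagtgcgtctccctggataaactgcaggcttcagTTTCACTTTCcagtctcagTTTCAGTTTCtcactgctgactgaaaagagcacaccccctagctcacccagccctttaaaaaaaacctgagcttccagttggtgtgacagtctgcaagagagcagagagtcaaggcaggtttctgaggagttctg
Ifit3: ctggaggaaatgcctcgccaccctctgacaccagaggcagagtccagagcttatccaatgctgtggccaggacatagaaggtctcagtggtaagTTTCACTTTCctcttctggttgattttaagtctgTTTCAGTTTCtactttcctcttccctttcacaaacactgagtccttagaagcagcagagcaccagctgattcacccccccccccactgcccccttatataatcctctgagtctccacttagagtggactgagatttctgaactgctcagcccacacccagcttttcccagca
Both Ifit genes held 2 matches on the opposite strand, Rsad2 held 1, and the match in Ifih1 lay after the start site. With Trim30a, 5 of the 14 genes called higher that have a promoter in the table held the motif (35.7%), whereas 378 of 11151 tested genes with a promoter did (3.39%). Over all 32851 promoter windows of 300 bases the share was 3.44%. Oasl2, Xaf1 and Ube2l6 were among the called genes whose promoter held no match. Of the genes with opposite changes of at least 0.5 and no overlap of groups, 2 of 12 higher and then lower held the motif (16.7%). Of those lower and then higher, 4 of 27 did (14.8%). A match describes letters and not a bound site, and promoters of 7 of the 23 called genes were not used here.

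Ifi27l2a, whose small protein is induced by interferon, read 7.01 and 5.75 in CTRL cKO, 6.58 and 7.09 in cKO, 5.13 and 4.93 in CTRL Rescue, and 11.07 and 11.28 in Rescue. The groups overlapped in the Twist1 table and lay far apart in the other, where the signal was 70.6-fold higher. Its difference of differences was 5.69 (SE 0.55, adjusted p = 0.0168), and it did not pass without CTRL Rescue 1 or CTRL Rescue 2. Rsad2, the antiviral enzyme viperin, read 6.29 and 5.93 in CTRL cKO, 6.61 and 6.21 in cKO, 4.71 and 5.03 in CTRL Rescue, and 10.16 and 10.38 in Rescue. The first 4 arrays overlapped, and both Rescue arrays stood above both of their controls. The difference was 5.10 (SE 0.31, adjusted p = 0.00191). Oasl2, a relative of the oligoadenylate synthetases that sense double-stranded RNA, had the smallest spread of these genes. Its arrays read 4.52 and 4.56 in CTRL cKO, 4.32 and 4.60 in cKO, 4.31 and 3.98 in CTRL Rescue, and 8.73 and 9.0 in Rescue, a difference of 4.80 (SE 0.26, adjusted p = 0.00184).

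Usp18, the protease that removes ISG15 and damps interferon signalling, read 6.04 and 6.01 in CTRL cKO, 5.81 and 5.91 in cKO, 4.02 and 3.80 in CTRL Rescue, and 7.73 and 8.02 in Rescue. Groups were apart in both tables and on opposite sides of their controls, although the change after Twist1 deletion was only -0.16. The difference was 4.13 (SE 0.24, adjusted p = 0.00184). Ifit1, which binds foreign RNA, behaved otherwise: it read 4.52 and 4.19 in CTRL cKO and 5.19 and 5.20 in cKO, then 4.00 and 4.38 in CTRL Rescue and 8.63 and 8.49 in Rescue. It was higher in both deletions, by 0.84 (adjusted p = 0.180) and 4.37 (adjusted p = 1.049e-04), with a difference of 3.54 (SE 0.27, adjusted p = 0.00416). Rtp4 (5.19), Xaf1 (3.81), Zbp1 (3.56) and Ifit3 (2.52) also passed. Other probe sets gave smaller differences for Rtp4 (1.61) and Rsad2 (2.17 and 3.39) and a larger difference for Xaf1 (4.10). Zbp1, a sensor of Z-form nucleic acid, has a second probe set with changes of 0.36 and 0.31, so its difference rested on 1 of 2. The least different members were Mx2 (0.49) and Mx1 (0.38), whose proteins block virus replication.

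Members of the signalling and sensing list ranged widely. Of the RNA helicases, Ifih1, the sensor MDA5, differed by 4.04, Dhx58 by 3.24 (SE 0.34, adjusted p = 0.0223) and Ddx58, the sensor RIG-I, by 2.11 (SE 0.31, adjusted p = 0.0800), the last not passing. The transcription factor genes Irf9 (2.15, adjusted p = 0.0552), Stat2 (1.87) and Irf7 (1.62) did not pass either, although each rose in the joint deletion. The difference was 0.69 for the receptor gene Ifnar1, 0.70 for Ifngr2 and 0.18 for the kinase gene Jak1. Mavs (-0.37) and Tyk2 (-0.64), which relay the signal, had negative differences.

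Further interferon-linked groups had positive differences with no member called. All 7 guanylate-binding and immunity-related GTPases measured, of 14 listed, had an unadjusted p under 0.05 as higher, where 5.89% of all genes did (median 2.27). In the joint deletion 5 of the 7 rose, where 1.19% of all genes did. Of 10 genes of MHC class I presentation 9 had such a p, all higher (median 0.88), led by the immunoproteasome subunits Psmb8 (2.87, SE 0.64) and Psmb9 (2.54, SE 0.48). For 8 of these 10 the sign turned from lower to higher, at small sizes in the Twist1 table (median -0.20). Of 15 chemokines 5 had an unadjusted p under 0.05, all higher, including Cxcl9 (4.75, SE 1.22) and Ccl8 (4.14, SE 0.90). Cxcl9 read 4.60 and 7.68 in the cKO arrays, which straddled both controls at 6.58 and 5.76.

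Markers of leukocytes, which make and answer interferon, stayed near their control level. The 16 measured of 22 leukocyte markers averaged 5.04 and 5.01 in CTRL Rescue against 5.12 and 5.03 in Rescue, and 5.44 and 5.50 in CTRL cKO against 5.47 and 5.59 in cKO. The median difference of these markers was 0, none passed (1 had an unadjusted p under 0.05), and Ptprc, which defines leukocytes, read 3.26 to 3.52 across the Twist1/p53 table. The 7 Langerhans cell markers measured averaged 6.16 and 6.36 in CTRL Rescue against 6.85 and 6.84 in Rescue. Cd207, which defines these cells, read 3.81 and 4.11 against 3.71 and 3.63. Epcam, by which the tumour cells were sorted, is among the 7 and read 10.42 and 10.46 against 10.95 and 11.01. In sorted bulk cells, more cells of a kind and more RNA per cell cannot be told apart.

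**Figure D2:**
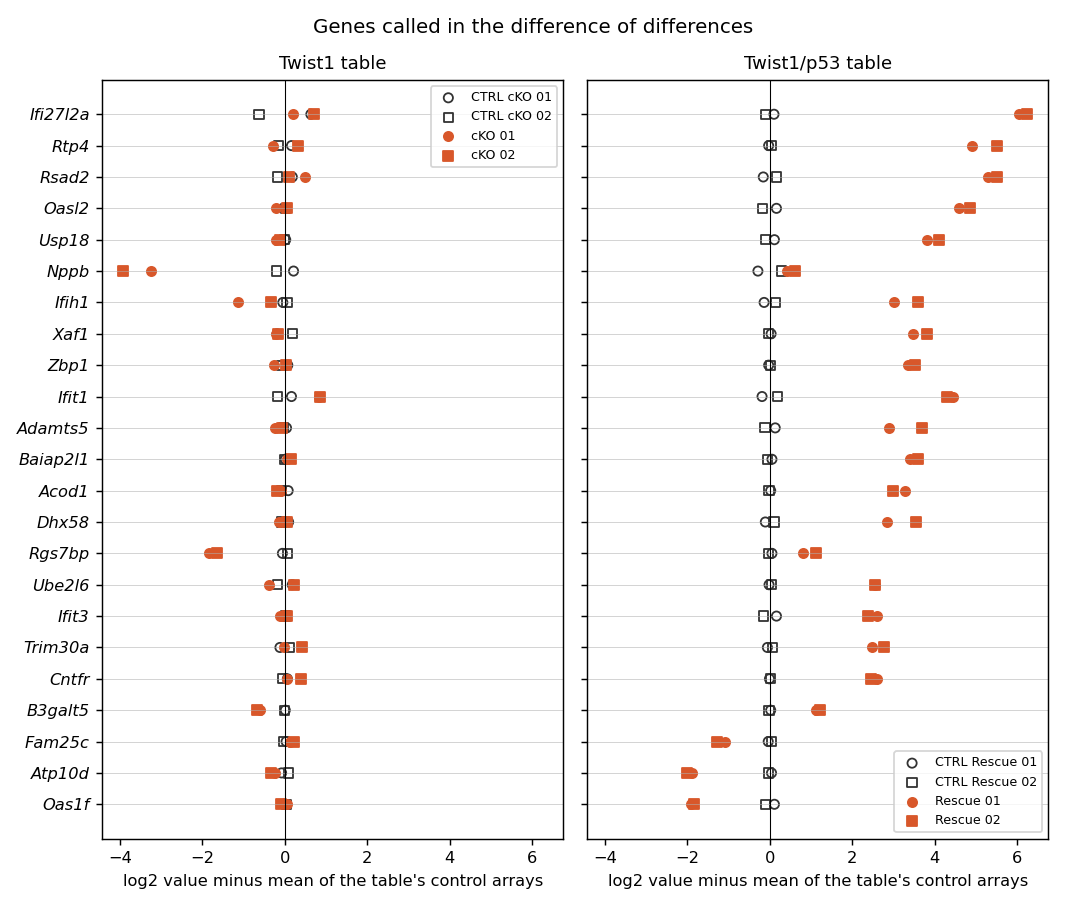
Log2 values of the 23 called genes in each array, minus the mean of the control arrays of the same table, with the Twist1 table on the left and the Twist1/p53 table on the right. Deletion arrays (filled) stand within 1 unit of the control mean on the left except for Nppb, Rgs7bp and the first cKO array of Ifih1, and on the right they do not overlap the controls (open) for any of the 23.

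Outside the lists, 9 further genes passed as higher, and they were named after their values were seen. Trim30a (2.42) and Ube2l6 (2.65), which attaches ISG15 to proteins, are themselves interferon-induced. Ube2l6 read 3.91 to 4.51 in the Twist1 table, where it ranked under percentile 20, and it was kept only through its higher values in the Twist1/p53 table. Baiap2l1, an adaptor that bends membranes at actin-rich sites, read 7.85 and 7.84 in CTRL cKO, 7.89 and 8.0 in cKO, 7.36 and 7.26 in CTRL Rescue, and 10.71 and 10.91 in Rescue. Groups were apart in both tables, narrowly in the first and widely in the second, with a difference of 3.40 (SE 0.19, adjusted p = 0.00184). Its second probe set gave -0.19 and 4.12. Acod1, the enzyme that makes itaconate, read 4.32 to 4.59 across the Twist1 table, 4.22 and 4.18 in CTRL Rescue, and 7.49 and 7.19 in Rescue, a difference of 3.28 (SE 0.21, adjusted p = 0.00191). Adamts5, a protease of cartilage proteoglycans, differed by 3.43 (SE 0.38), with 2 of its 3 other probe sets at 3.56 and 3.93 and the third at -0.06. Cntfr, a receptor subunit for ciliary neurotrophic factor, differed by 2.30 (SE 0.24) and by 2.24 in its other probe set.

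The 3 genes called lower all fell in the joint deletion and were nearly level after Twist1 deletion. Of these, Oas1f read under the median of every array in the Twist1 table (5.42 to 5.44), where a fall could be missed. Oas1f, of the oligoadenylate synthetase family, read 7.66 and 7.44 in CTRL Rescue and 5.63 and 5.72 in Rescue, against 4.77 and 4.83 in CTRL cKO and 4.84 and 4.71 in cKO. It went against the direction of the other antiviral genes, with a difference of -1.85 (SE 0.21, adjusted p = 0.0282), and did not pass in 7 of the 8 fits that leave out 1 array, the exception being the fit without cKO 2. Atp10d, a lipid-flipping ATPase, read 10.23 and 10.39 in CTRL cKO, 10.08 and 9.98 in cKO, 7.70 and 7.63 in CTRL Rescue, and 5.76 and 5.64 in Rescue. Groups were apart in both tables and lower in both, by -0.28 and -1.96, a difference of -1.68 (SE 0.19, adjusted p = 0.0260). Fam25c differed by -1.34 (SE 0.14), from 11.78 and 11.85 in CTRL Rescue to 10.74 and 10.54 in Rescue.

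Opposite changes of at least 0.5 in both tables were found for 105 genes. In 62 (0.444%) the signal was lower after Twist1 deletion and higher after joint deletion, and in 43 (0.308%) it was higher and then lower. Arrays of deletion and control did not overlap in either table for 52 of them (0.372% of all genes), 34 of the first kind (0.243%) and 18 of the second (0.129%), whereas groups were apart in both tables with opposite directions of any size for 6.46% of all genes. The difference passed for 4 of the 105 (0.0286% of all genes): Nppb, Ifih1, Rgs7bp and B3galt5, all lower and then higher. The 105 became 196 without CTRL cKO 2 and 311 without cKO 2. Without cKO 2 the difference passed for 63 genes with opposite signs, without Rescue 1 for 6 and without Rescue 2 for 7. It passed for 1 without CTRL cKO 2, for 1 without CTRL Rescue 2, and for 0 without CTRL cKO 1 or CTRL Rescue 1, where limma gave 11 and 10 called genes in all. The first cKO array lay farther from the control mean than the second in 87 of the 105 genes, against 45.4% of all genes. At the border of the rule, Trim21 (-0.50 and 0.75) and S100a13 (-0.50 and 0.65) were inside, and Parp12 (-0.49 and 2.44) and Nmi (-0.49 and 1.55) were just outside.

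Nppb encodes the precursor of brain natriuretic peptide, a hormone best known from the heart. It read 10.53 and 10.12 in CTRL cKO, 7.06 and 6.40 in cKO, 9.91 and 10.49 in CTRL Rescue, and 10.61 and 10.80 in Rescue. Only the cKO arrays were low, and the Rescue arrays lay just above their controls. It fell by 3.59 on the log2 scale after Twist1 deletion (SE 0.28, adjusted p = 0.00736). After joint deletion it was higher by 0.50 (adjusted p = 0.419), at the border of the rule, so its difference of 4.10 (SE 0.39, adjusted p = 0.0168) came nearly all from the Twist1 table. The difference did not pass without CTRL cKO 1, CTRL cKO 2 or CTRL Rescue 1.

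Rgs7bp, which anchors regulators of G protein signalling at the membrane, was the 1 gene of the 8 called in both tables whose directions differed. The Twist1 table had 21 called genes (0.15%) and the other had 265 (1.9%). It read 6.68 and 6.80 in CTRL cKO, 4.90 and 5.09 in cKO, 6.84 and 6.75 in CTRL Rescue, and 7.59 and 7.92 in Rescue. Both deletions stood clear of their controls, below in one table and above in the other. It fell by 1.74 after Twist1 deletion (adjusted p = 0.0249) and rose by 0.96 after joint deletion (adjusted p = 0.0493), a difference of 2.71 (SE 0.25, adjusted p = 0.0145). Its 2 other probe sets gave -1.32 and 0.22, and -0.92 and 0.93.

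Ifih1 read 6.60 and 6.70 in CTRL cKO, 5.51 and 6.32 in cKO, 4.86 and 5.14 in CTRL Rescue, and 8.01 and 8.60 in Rescue. The cKO arrays were low, the first more than the second, and both Rescue arrays were high. It was lower by 0.73 after Twist1 deletion, where it did not pass (adjusted p = 0.389), and rose by 3.31 after joint deletion (adjusted p = 0.00480), a difference of 4.04 (SE 0.44, adjusted p = 0.0228). B3galt5, a galactosyltransferase of glycolipid synthesis, read 5.56 and 5.54 in CTRL cKO, 4.95 and 4.88 in cKO, 4.99 and 4.95 in CTRL Rescue, and 6.10 and 6.19 in Rescue. The arrays of each group were close to each other, and no groups of a table overlapped. The changes were -0.63 (adjusted p = 0.149) and 1.17 (adjusted p = 0.00941), a difference of 1.81 (SE 0.18, adjusted p = 0.0187). Its 3 other probe sets did not show this, with differences of 0.23, 0.25 and -0.02. Ifih1, Rgs7bp and B3galt5 did not pass without any single control array (adjusted p up to 0.170, 0.139 and 0.192), whereas all 3 passed without any single deletion array.

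The genes next in size that were lower and then higher did not pass. Epb41l3, a protein linking membrane and cytoskeleton, read 6.43 and 7.23 in CTRL cKO, 5.25 and 6.13 in cKO, 4.81 and 5.12 in CTRL Rescue, and 8.14 and 7.46 in Rescue. Groups were apart in both tables, with changes of -1.14 and 2.84 and a difference of 3.98 (SE 0.56, adjusted p = 0.0733), and a second probe set gave -1.0 and 2.10. S100a9, a subunit of the antimicrobial protein calprotectin, read 13.55 and 11.62 in CTRL cKO, 10.86 and 11.59 in cKO, 9.30 and 9.85 in CTRL Rescue, and 11.35 and 12 in Rescue. The second cKO array lay just under the lower control, and the difference of 3.46 had a wide error (SE 0.84, adjusted p = 0.248). Samd9l (-0.97 and 2.02), Parp14 (-0.66 and 2.26), Eif2ak2 (-0.56 and 1.44) and Ifit2 (-0.64 and 0.79), antiviral effectors by the list, had the same pattern with groups apart. Ifi204 (-1.99 and 1.06), Tnfaip2 (-1.08 and 1.92) and Cyba (-0.55 and 2.96), a subunit of the phagocyte oxidase, were similar, with adjusted p between 0.161 and 0.269.

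Several defence and inflammatory genes were lower and then higher. The S100 and antimicrobial list supplied 5 of the 62 from 18 measured, the interleukins and alarmins 4 from 16, and the antiviral effectors 4 from 22. Of all genes 0.444% were among the 62. The S100 and antimicrobial list also supplied 1 of the 43 genes that were higher and then lower, Wfdc12. Of 18 S100 and antimicrobial genes 7 had an unadjusted p under 0.05, all higher (38.9%, against 5.89% of all genes), with a median difference of 0.62 and none called. Defb3, an antimicrobial peptide, had the largest difference of these (4.69, SE 1.62) but read 6.49 and 3.86 in CTRL cKO, with 1 control high and the other level with the cKO arrays. The cytokine genes Il6 (-0.96 and 1.60) and Csf3 (-0.70 and 1.54) and the matrix protease Mmp9 (-0.57 and 2.12) had opposite signs with overlapping groups in the Twist1 table.

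In the other direction, Mdm2 came closest to the threshold. It encodes the ubiquitin ligase that degrades p53 and is itself a p53 target. Mdm2 read 8.53 and 8.55 in CTRL cKO, 9.59 and 9.10 in cKO, 10.55 and 10.61 in CTRL Rescue, and 9.77 and 9.73 in Rescue. Controls were nearly identical within each table, both cKO arrays stood above them and both Rescue arrays below. The changes were 0.81 (adjusted p = 0.155) and -0.83 (adjusted p = 0.0614), with a difference of -1.64 (SE 0.24, unadjusted p = 1.942e-04, adjusted p = 0.0798), and a second probe set gave 0.55 and -0.56. Trp53inp1, a p53 target that promotes cell death, read 8.70 and 9.77 in CTRL cKO, 10.32 and 10.01 in cKO, 9.22 and 8.73 in CTRL Rescue, and 7.05 and 7.53 in Rescue. Its groups were apart in both tables, with changes of 0.93 and -1.68, a difference of -2.62 (SE 0.51, adjusted p = 0.168) and a second probe set at 0.75 and -1.69.

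Lor had the largest negative difference, -5.07 (SE 1.39, adjusted p = 0.295), with a wide error. It read 4.43 and 4.56 in CTRL cKO, 8.84 and 5.19 in cKO, 8.01 and 8.57 in CTRL Rescue, and 5.70 and 5.78 in Rescue. The first cKO array lay far above the second, whereas both Rescue arrays were low. The difference was -3.24 without cKO 1 (limma adjusted p = 0.0394) and -6.90 without cKO 2 (adjusted p = 0.00508), so it passed without either cKO array and not with both. Cpt1c (1.39 and -1.84), a brain-type carnitine palmitoyltransferase, had the same uneven cKO arrays at 8.98 and 7.46. Ms4a10 (0.60 and -1.43), Kank3 (1.11 and -0.75), Ddit4l (0.52 and -1.24), an inhibitor of mTOR signalling, Spon2 (1.00 and -0.75), Gem (0.58 and -0.82), a small GTPase, and Zfp593 (0.77 and -0.62) had groups apart in both tables and adjusted p between 0.116 and 0.295. Cryab, a small heat shock protein, was larger (1.80 and -0.84) but less sure, with cKO arrays at 8.33 and 6.01 and a difference of -2.64 (SE 0.93, adjusted p = 0.411). It was named after its values were seen. Other probe sets gave 0.98 and -0.25 for Cryab, 0.10 and -0.13 for Ddit4l, and 0.22 and -0.26 for Zfp593. The other probe set of Spon2 gave 0.32 and 0.04, without a turn of sign. Those of Kank3 gave -0.05 and 0, and 0.57 and -0.27.

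**Figure D3:**
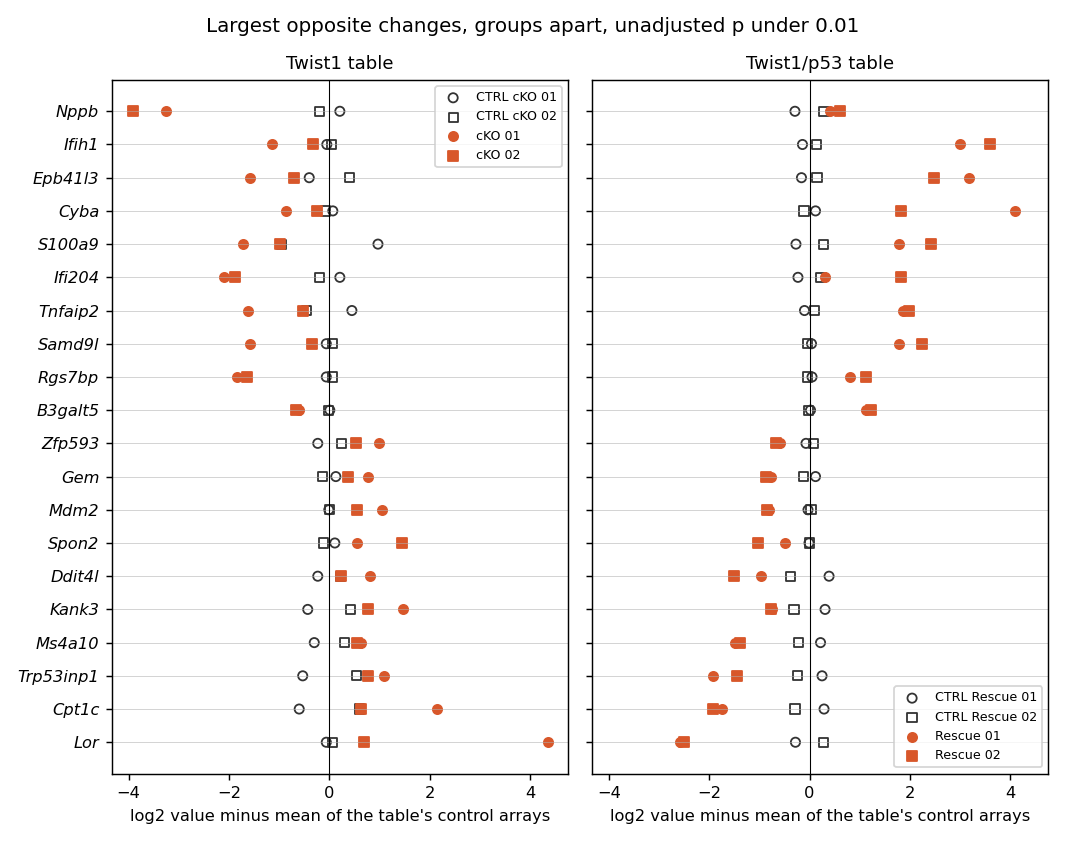
Log2 values in each array minus the mean of the control arrays of the same table, for named genes with opposite changes groups apart in both tables and an unadjusted p under 0.01, 10 lower then higher (upper rows) and 10 higher then lower (lower rows). Filled symbols of a row lie on one side of the open control symbols on the left and on the other side on the right, and in Lor 1 cKO array stands alone.

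Across the 41 measured p53 targets the more common pattern was higher and then lower. The signal was higher after Twist1 deletion and lower after joint deletion for 23 of them (56.1%), against 19.2% of all genes, and the reverse held for 3 (7.32%, against 21.2%). Medians were 0.17 after Twist1 deletion, -0.38 after joint deletion and -0.52 for the difference. Of the 41, 35 had a negative difference (48.3% of all genes did) and 14 reached an unadjusted p under 0.05 as lower (34.1%, against 4.4%), but none passed after adjustment. Groups were apart in both tables with opposite directions for 6 of the 41 (14.6%, against 6.46%): Mdm2, Trp53inp1, Ccng1, Btg2, Plk3 and Tnfrsf10b. In the joint deletion Ccng1 and Zmat3 fell, 2 of 41 where 0.701% of all genes did.

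The targets fall into genes of arrest and feedback and genes of death. Of the 28 arrest and feedback targets 12 had an unadjusted p under 0.05 as lower, with a median difference of -0.55. Ccng1, a cyclin that acts in p53 feedback, read 10.65 and 10.95 in CTRL cKO, 11.31 and 11.07 in cKO, 9.65 and 9.49 in CTRL Rescue, and 8.76 and 8.38 in Rescue. Each deletion lay clear of its controls, above and then below, with a difference of -1.39 (SE 0.25, adjusted p = 0.129). Zmat3, an RNA-binding p53 target, differed by -1.56 (SE 0.41), with almost no change after Twist1 deletion (-0.10). The antiproliferative gene Btg2 had changes of 0.39 and -0.70, the kinase Plk3 0.82 and -0.22, and Sesn1, a stress-induced inhibitor of mTOR signalling, 0.33 and -0.94. Cdkn1a, which encodes the arrest protein p21, read 11.30 and 11.33 in CTRL cKO, 11.79 and 11.41 in cKO, 12.02 and 12.07 in CTRL Rescue, and 11.97 and 12.08 in Rescue. Its values hardly moved in the Twist1/p53 table, and the difference was -0.31 (SE 0.18, adjusted p = 0.622). The exceptions with a positive difference in this list were Ak1 (0.98), Sesn2 (0.28) and Rrm2b (0.13).

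Of the 13 death targets 2 had an unadjusted p under 0.05 as lower, Bbc3 and Tnfrsf10b, and 1 as higher, Dram1. Bbc3, the death protein PUMA, had changes of 0.45 and -0.80 with a difference of -1.26 (SE 0.44, adjusted p = 0.412), and 1 of its cKO arrays lay within the controls. Tnfrsf10b, a death receptor, had changes of 0.35 and -0.67. The difference was -0.13 for Perp, -0.55 for Pmaip1, which encodes the death protein NOXA, and 1.01 for the autophagy gene Dram1. The median of this list, -0.52, was -0.27 without cKO 1, -0.28 without Rescue 1 and -0.29 without Rescue 2, and that of the arrest and feedback list lay between -0.75 and -0.49 in all 8 such fits.

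**Figure D4:**
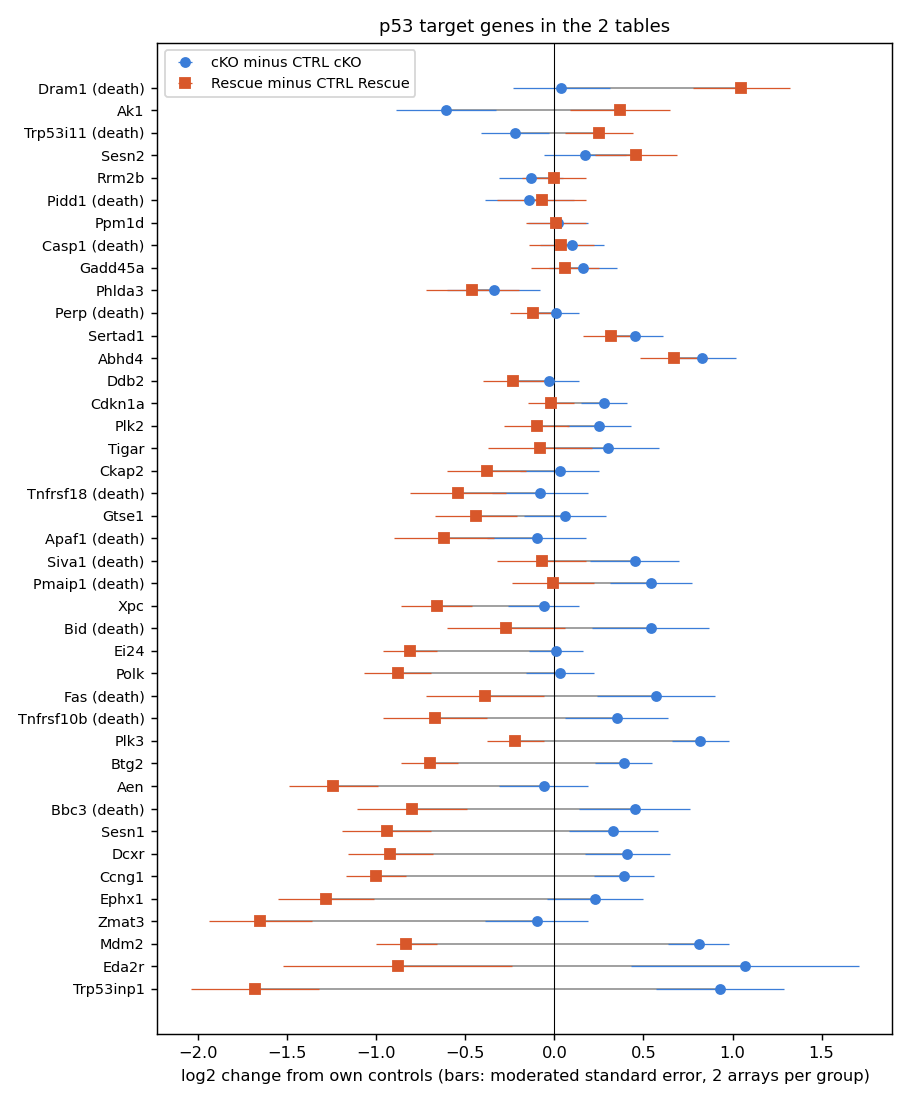
Log2 change of the 41 measured p53 targets after Twist1 deletion (circles) and after Twist1/p53 deletion (squares), with moderated standard errors from 2 arrays per group, ordered by the difference. Squares lie to the left of circles for 35 genes, and the widest gap is that of Trp53inp1.

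Genes of replication and mitosis mostly had small positive differences. All 31 measured genes of DNA replication and 28 of 31 genes of G2 and mitosis had a positive difference, against 51.7% of all genes. Their median changes were -0.43 and -0.49 after Twist1 deletion and 0.01 and -0.12 after joint deletion, giving median differences of 0.34 and 0.30. No member passed, and 11 of the 62 reached an unadjusted p under 0.05, all higher (17.7%, against 5.89%). Aurkb, a mitotic kinase, read 8.59 and 8.48 in CTRL cKO, 7.87 and 7.39 in cKO, 9.19 and 9.15 in CTRL Rescue, and 9.32 and 9.13 in Rescue. The cKO arrays were low and the other pair overlapped its controls, a difference of 0.96 (SE 0.25, adjusted p = 0.279). Its second probe set gave -0.63 and -0.33, and the mean of both a difference of 0.63. Orc1, which marks replication origins, had changes of -0.71 and 0.16, and Rfc3, a clamp loader subunit, -0.66 and 0.30. Mki67, a proliferation marker, had a difference of -0.18 (SE 0.26), and Foxm1, a mitotic transcription factor, of -0.08. The G2 and mitosis median was 0.12 without Rescue 1 and 0.52 without Rescue 2, and the replication median was 0.52 without Rescue 2. Of 21 G1 cyclins and CDK inhibitors 15 had a positive difference (median 0.17). The Gapdh and spike-in signals separated cKO from CTRL cKO in the same arrays, with spike-ins at 8.22 and 9.14 in CTRL cKO against 9.49 and 10.53 in cKO, and their part was not tested.

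The 8 simple and mucosal keratins had a median change of 0.90 after Twist1 deletion and 0.13 after joint deletion, with a median difference of -1.11. None passed, and 2 had an unadjusted p under 0.05 as lower (4.4% of all genes did) and 1 as higher (5.89%). The median was -0.61 without CTRL cKO 1, -0.43 without Rescue 2 and -1.89 with the filter at the 50th percentile, which leaves fewer keratins. Krt8, a keratin of single-layered epithelia, read 5.10 and 5.82 in CTRL cKO, 7.34 and 7.85 in cKO, 4.53 and 4.32 in CTRL Rescue, and 5.27 and 4.17 in Rescue. The cKO arrays stood clear of their controls, whereas the Rescue arrays lay on both sides of theirs, a difference of -1.84 (SE 0.56, adjusted p = 0.337). Krt7 turned sign with groups apart (0.57 and -0.57), at low values. It averaged 4.87 in the Twist1 table and 4.70 in the other, under the array medians of each. Sox2, a transcription factor of tumour-propagating cells, was high in the cKO arrays alone, at 10.27 and 7.40 against 4.60 and 6.20 in CTRL cKO, and it read 2.93 to 3.33 throughout the Twist1/p53 table, close to the lowest value of each of those arrays (2.76 to 2.81), so that table bears little on it. Pparg, whose nuclear receptor drives lipid genes in sebocytes, rose after Twist1 deletion (2.89, adjusted p = 0.0249) and was at 0.34 after joint deletion, a difference of -2.55 (SE 0.41, adjusted p = 0.110).

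Differentiation and matrix genes were mixed. Of 23 cornified envelope genes 4 had an unadjusted p under 0.05 as lower, where 4.4% of all genes did, and 1 as higher (5.89%), and the median of -0.48 was 0.09 without cKO 1 and 0.05 without Rescue 1, that is, on the other side of 0. It was -0.30 without CTRL cKO 1, -1.14 without cKO 2 and -0.83 without Rescue 2. Lce1b and Lce1a1, late envelope proteins, fell in the joint deletion (-1.75 and -1.40) and were level after Twist1 deletion (both 0.03). Lce1b averaged 4.95 in the Twist1 table, under the median of every array there (5.42 to 5.44), where a fall could be missed. Of 16 collagens 5 reached that p as lower (4.4% of all genes did), and Col6a1 (-2.70), Col6a2 (-1.86) and Col5a2 (-1.99) fell in the joint deletion, where 0.701% of all genes did. Their changes after Twist1 deletion were -0.01, 0.04 and 0.58. The fibroblast markers, 10 of 13 measured, averaged 6.92 and 7.00 in CTRL Rescue against 7.13 and 6.41 in Rescue, and 6.46 and 6.16 against 6.26 and 6.75 in the Twist1 table, and their part in the collagen values was not tested. Within them Col1a1, itself a collagen, read 10.10 and 10.33 in CTRL Rescue against 8.55 and 6.84 in Rescue, and Lum changed by -1.10. Dcn went the other way, at 5.04 and 4.92 in CTRL Rescue against 7.81 and 5.85 in Rescue, as did Fbln1 (0.72). The pericyte markers, 5 of 7 measured, averaged 6.35 and 6.45 in CTRL Rescue against 5.54 and 5.61 in Rescue, with no overlap, and 6.09 and 6.05 against 6.79 and 5.93 in the Twist1 table. Their median change after joint deletion was only -0.21, so the lower mean came largely from Rgs5 (-3.19). The part of the pericyte markers was not tested either.

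**Figure D5:**
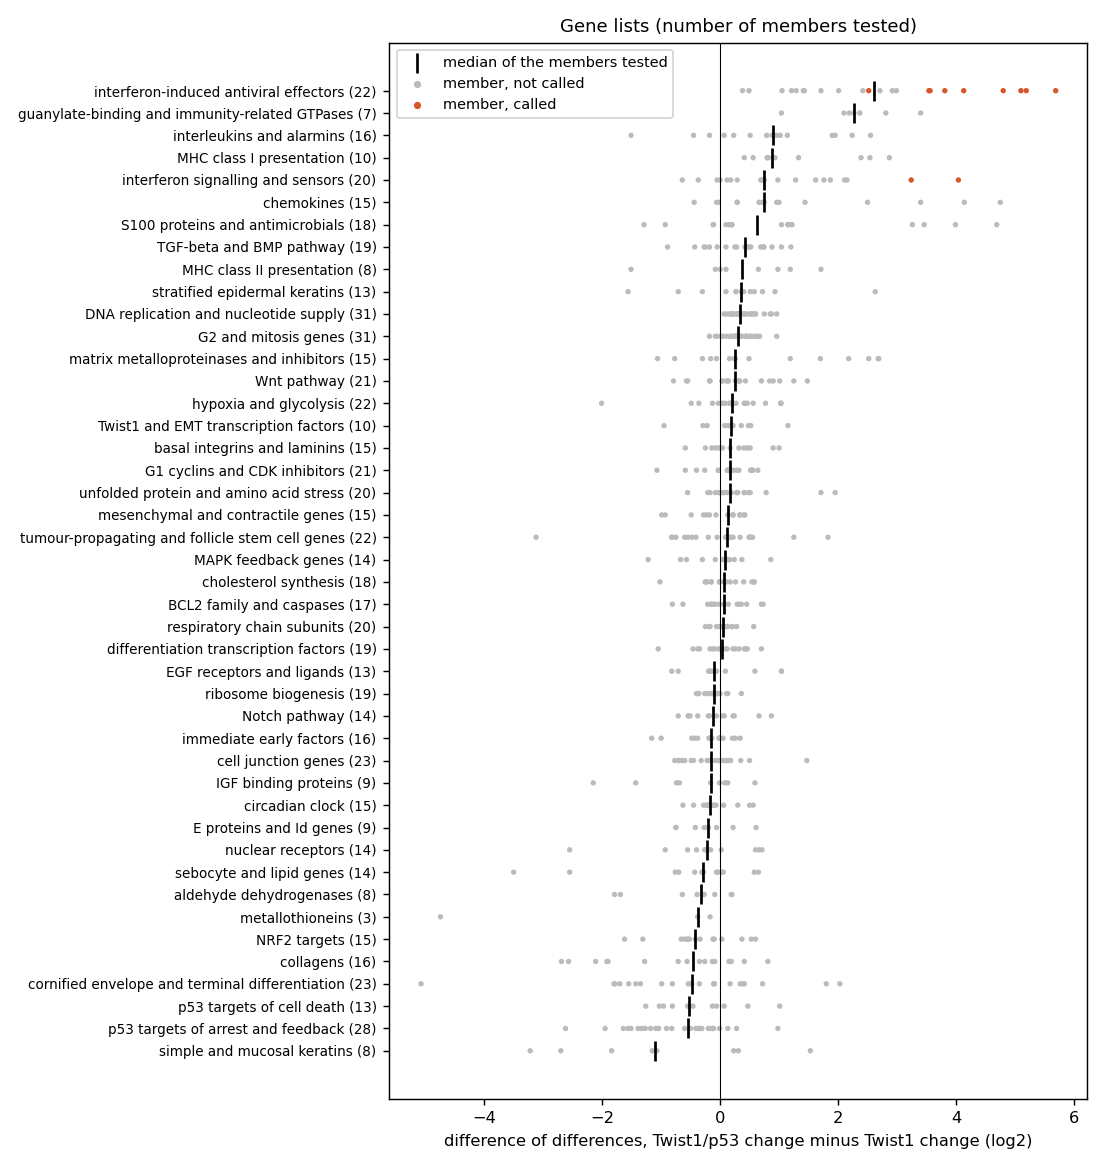
Difference of differences of every measured member of each gene list other than the cell type markers (points, called members in colour) with the median of the list (bar), ordered by the median. The antiviral effectors lie highest, and the p53 targets and simple keratins lie at the other end.

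Some large changes were alike in both deletions. The genes below were picked for a change of at least 1.5 in each table, in the same direction, with the smallest difference. Their likeness therefore follows from the choice. Esr1, the estrogen receptor gene, read 3.96 and 4.34 in CTRL cKO, 8.94 and 8.83 in cKO, 6.56 and 5.98 in CTRL Rescue, and 11.10 and 10.49 in Rescue. Its signal was higher by 4.73 and 4.52, a difference of -0.21 (SE 0.39). Only the deletion groups carried CreER, and the part of this transgene in the Esr1 signal was not tested. Id2, an inhibitor of basic helix-loop-helix factors, was higher by 1.81 and 1.60, although its other probe sets gave 1.61 and 0.65, and 0.98 and 0.11. Prkd1, a protein kinase D, was higher by 1.87 and 2.11 and the lysosomal protease Ctsz by 1.61 and 1.67. Dsg1a, a desmosomal cadherin, was lower by -2.33 and -2.54, Vwa2 by -1.89 and -1.67 and Nat8l by -1.51 and -1.63. Lypd6 was lower by -1.74 and -1.60, and its other probe sets gave -1.17 and -1.15, and -1.24 and 0.01.

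Probe sets that had not been chosen to stand for a gene gave a further reading. For 11 of the 23 called genes there were 18 others, of which 15 had a difference of the same sign and 12 one of at least 1 in that direction. Among the 105 genes with opposite signs, 48 had 81 others, of which 74 kept the sign of the difference and 56 had opposite signs again. Probe sets of one gene share the RNA of each array, so this bears on the probes and not on the replication of the arrays.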

How the data were processed

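Gene expression was measured on 8 Affymetrix mouse arrays, 2 per group. The authors deposited 2 tables of log2 values, 1 per array type. That the scale is log2 was read from the values, since no label or header states it. The software that summarised probes into these values is not stated in any source used. Array medians were 5.42 to 5.44 in the Twist1 table and 4.81 to 4.82 in the Twist1/p53 table, so the authors had equalised the arrays of a table. Arrays have no read depth, and their number limits the precision.

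Probe sets were joined by identifier and named through the platform annotation of both array types, matched to RefSeq (GRCm38.p6) by Entrez number. A gene took the probe set with the highest mean percentile rank over both tables, and a mean rank under 20 was left out. limma 3.58.1 in R 4.3.3 (lmFit, eBayes with an intensity trend) fitted all 8 arrays with 4 group means. Each change was taken as deletion minus control, with the moderated standard error (SE). The script was tested on simulated data. Named genes were Twist1 and Cdkn1a, called genes, and the largest opposite changes with groups apart and an unadjusted p under 0.01. Shared changes of at least 1.5 in each table with the smallest difference were named too, as were the extremes of the lists described. Others were added where a group is described. The members and the lists were chosen with earlier results of these data known. Sex-linked genes were skipped in ranking, and no level is given for the gene of p53. Alternatives were other normalizations, filters, probe set rules, variance models, thresholds, a replicate block and leaving out each array. The replicate numbers did not pair the arrays.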

Additional observations from a re-analysis of the deposited data

Results flagged for a closer look

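For 23 genes the effect of joint deletion differed from that of Twist1 deletion by the test of the difference itself (limma, adjusted p between 0.00184 and 0.0345, 2 arrays per group). In the antiviral genes Ifi27l2a, Rtp4, Rsad2, Oasl2, Usp18, Xaf1, Zbp1, Ifit1 and Ifit3 the log2 difference was 5.69, 5.19, 5.10, 4.80, 4.13, 3.81, 3.56, 3.54 and 2.52. In the sensors Ifih1 and Dhx58 it was 4.04 and 3.24, and in the interferon-induced genes Ube2l6 and Trim30a it was 2.65 and 2.42. Nppb, Rgs7bp and B3galt5, which had opposite signs in the 2 tables as Ifih1 did, differed by 4.10, 2.71 and 1.81. Adamts5, Baiap2l1, Acod1 and Cntfr differed by 3.43, 3.40, 3.28 and 2.30. In Fam25c, Atp10d and Oas1f the difference was -1.34, -1.68 and -1.85. For all 23 genes, p53 status, array type and experiment cannot be told apart. Nor can a direct effect of p53 loss and an altered response to loss of Twist1, since no group lost p53 alone.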

How the results depend on the processing

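The 23 genes called in the difference kept their direction under every alternative run, and all 23 still passed under quantile normalization, median centring, rescaled tables, no filter, a robust fit, array weights and separate fits of the tables. The filter at the 50th percentile gave 13 called genes, 11 of them higher, from the 13 of the 23 that it kept. The mean over probe sets lost Adamts5 (2.72), Trim30a (2.05), Cntfr (2.27) and B3galt5 (0.57, adjusted p = 0.281) of the 23 and called 7 genes lower. The filter in each table left out Ube2l6, and the other 22 passed. With no intensity trend Fam25c was lost (adjusted p = 0.0665) and 12 genes passed in the Twist1 table, and without the genes of X and Y 9 did. Array weights called 6 lower, 7 with opposite signs, 13 in the Twist1 table and 608 in the Twist1/p53 table. Separate fits called 71, with 52 higher, 19 lower and 16 of opposite sign. The replicate numbers did not pair the arrays (correlation of deviations 0.01 and -0.03). With the replicate block 6 genes passed in the difference, 6 higher and 0 lower (limma), 1 of them with opposite signs, and 5 and 60 passed in the 2 tables. At an adjusted p under 0.01, 9 passed, 9 higher and 0 lower, 0 with opposite signs, and 6 and 51 in the 2 tables. At an adjusted p under 0.10, 46 passed, 37 higher and 9 lower, 9 with opposite signs, and 59 and 566 in the 2 tables. Opposite signs of at least 0.25 were met by 543 genes and of at least 1 by 16, of which 0 were called.

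Leaving out each array in turn, the called genes numbered 10 to 144, with 9 to 94 higher, 0 to 50 lower and 0 to 63 with opposite signs. Opposite signs, called or not, numbered 91 to 311, and calls numbered 6 to 120 in the Twist1 table and 27 to 470 in the other. The sign of a small difference turned for Notch3 (-0.01 with quantile normalization) and Kdm5c (-0.03 with the mean over probe sets). It also turned as single arrays were left out for Notch3 (-0.69 to 0.79), Scd1 (-0.61 to 1.77), Mki67 (-0.45 to 0.09), Slc4a1 (-0.06 to 0.48), Ccl7 (-1.18 to 0.30), Cdt1 (-0.19 to 0.33) and Aldh3a2 (-0.20 to 0.61). The cause was not tested in any of these. With 2 arrays per group, a gene that did not pass is not shown to respond alike in both deletions, and a left-out array leaves a lone one that is assumed to vary like the other groups.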
